A study of Mus musculus with 12 samples.

Results

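The nuclear genes for subunits of respiratory complexes III, IV and V were followed through hippocampal RNA-seq of 12 mice. They were chosen by symbol, as every gene named Uqcr, Cyc1, Cox with a subunit number and letter, or Atp5, leaving out annotated -ps pseudogenes and Atp5s. This gave 45 genes: 9 of complex III, 19 of complex IV and 17 of complex V. Of these, 43 were among the 24590 genes listed in at least 1 library, and 41 had a mean of at least 1 FPKM and were tested. Cox8c, a testis isoform, and a second identifier named Atp5o were listed in no library, and Atp5g2 and Cox7b2 lay under the filter. FPKM counts fragments in relation to transcript length and to all fragments mapped, so that levels of genes can be set side by side, and the values below were scaled between libraries.

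The mice were male Shank2 knockouts (KO) and their wild-type (WT) littermates, of mixed C57BL/6J and C57BL/6N background, from 2 lines. Shank2 encodes a scaffold protein of the excitatory postsynapse. The groups were exon 7 KO (mice KO969, KO990 and KO994), exon 7 WT (WT628, WT993 and WT999), exon 6-7 KO (KO776, KO777 and KO864) and exon 6-7 WT (WT778, WT809 and WT865), named by the exons deleted in their line, and values of single mice are given in this order. The protocol names an age of 8 to 15 weeks for behavioural experiments, and the sources used here give no age at dissection. Shank2 itself was at 30.8 to 43.1 FPKM in exon 7 KO mice and 33.1 to 42.2 FPKM in exon 7 WT mice. It was at 6.48 to 7.44 FPKM in exon 6-7 KO mice and 14.7 to 15.9 FPKM in exon 6-7 WT mice. A value over the whole gene cannot show the loss of a single exon, so it is no check of the exon 7 labels.

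Complex III takes electrons from ubiquinol to cytochrome c and pumps protons. Complex IV, cytochrome c oxidase, passes them on to oxygen, and complex V, the ATP synthase, uses the proton gradient to make ATP. A few subunits are encoded in mitochondrial DNA and the many others, described here, in the nucleus. In the hippocampus this chain supplies most of the ATP that neurons spend on ion pumping and synaptic transmission. Several complex IV subunits exist as a common isoform and a minor isoform known mainly from heart, muscle, lung or testis.

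Each library is a mouse of its own, so p-values measure the spread between mice and libraries together. FPKM values keep no read total, so no counting error can be attached. Mitochondrially encoded transcripts made up 10.3 to 14.3% of the summed FPKM in exon 7 mice, knockout or wild type, and 6.22 to 7.39% in exon 6-7 mice. In each group 1 library (KO969, WT628, KO776 and WT778, called set A) lacked any value for a gene without a symbol, ENSMUSG00000095746, that stood at 218 to 435 FPKM in the other 8 libraries (set B). The summed choroid plexus markers were at 6751 to 8430 scaled FPKM in exon 6-7 KO mice, but at 42.5 in mouse WT865, an exon 6-7 WT. All 7 markers of excitatory hippocampal neurons had values in every library, with sums of 2431 to 2718 scaled FPKM in exon 7 KO, 2353 to 2636 in exon 7 WT, 2015 to 2171 in exon 6-7 KO and 1946 to 2268 in exon 6-7 WT mice. The labels give no date of dissection or sequencing, so line, cohort and library preparation cannot be told apart.

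Members spanned about 3 orders of magnitude in level and kept much the same order in both lines. Atp5b, the catalytic beta subunit of the ATP synthase head, was the highest member of complex V, at 747, 825 and 876 scaled FPKM in exon 7 KO, 781, 901 and 779 in exon 7 WT, 1018, 1291 and 1177 in exon 6-7 KO and 1122, 1486 and 1164 in exon 6-7 WT mice. Both knockout groups overlapped their littermates, and every exon 7 line mouse was below every exon 6-7 line mouse. The lowest tested member of complex V was Atp5l, the membrane subunit g, at 7.03, 7.36 and 5.46 scaled FPKM in exon 7 KO, 8.5, 5.47 and 5.65 in exon 7 WT, 14.3, 15.2 and 12.8 in exon 6-7 KO and 19.00, 16.4 and 17.7 in exon 6-7 WT mice. Atp5l has many near-identical copies in the genome. In complex III the hinge protein Uqcrh was highest, at 198, 268 and 257 scaled FPKM in exon 7 KO, 236, 277 and 273 in exon 7 WT, 497, 615 and 611 in exon 6-7 KO and 542, 683 and 596 in exon 6-7 WT mice. Uqcrfs1, the Rieske iron-sulfur protein, was lowest there, at 71.7, 56.9 and 56.3 scaled FPKM in exon 7 KO, 70.2, 50.98 and 52.4 in exon 7 WT, 129, 103 and 108 in exon 6-7 KO and 138, 118 and 111 in exon 6-7 WT mice. In both genes the knockout and wild-type mice of a line overlapped. In complex IV the highest mean over the mice of a line was that of Cox8a, the common isoform of subunit 8, in the exon 7 line (579.6 scaled FPKM) and that of Cox4i1 in the exon 6-7 line (1250). Cox8a was at 598, 591 and 604 scaled FPKM in exon 7 KO, 581, 555 and 548 in exon 7 WT, 1276, 1075 and 1048 in exon 6-7 KO and 1332, 1249 and 1119.7 in exon 6-7 WT mice. Its 3 exon 7 KO mice were above the 3 exon 7 WT mice, and the exon 6-7 groups overlapped. Cox4i2, the isoform of subunit 4 known from lung, was lowest, at 1.04, 0.19 and 0.71 scaled FPKM in exon 7 KO, 0.928, 0.523 and 1.13 in exon 7 WT, 3.33, 2.92 and 2.04 in exon 6-7 KO and 2.62, 2.06 and 1.94 in exon 6-7 WT mice. Over the 41 tested members, Spearman's rho between the mean levels of exon 7 WT and exon 6-7 WT mice was 0.875, a description across genes that share the same libraries. The median standard deviation within groups was 0.151 on the log2 scale for the members, against 0.169 for all genes tested.

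**Figure D1:**
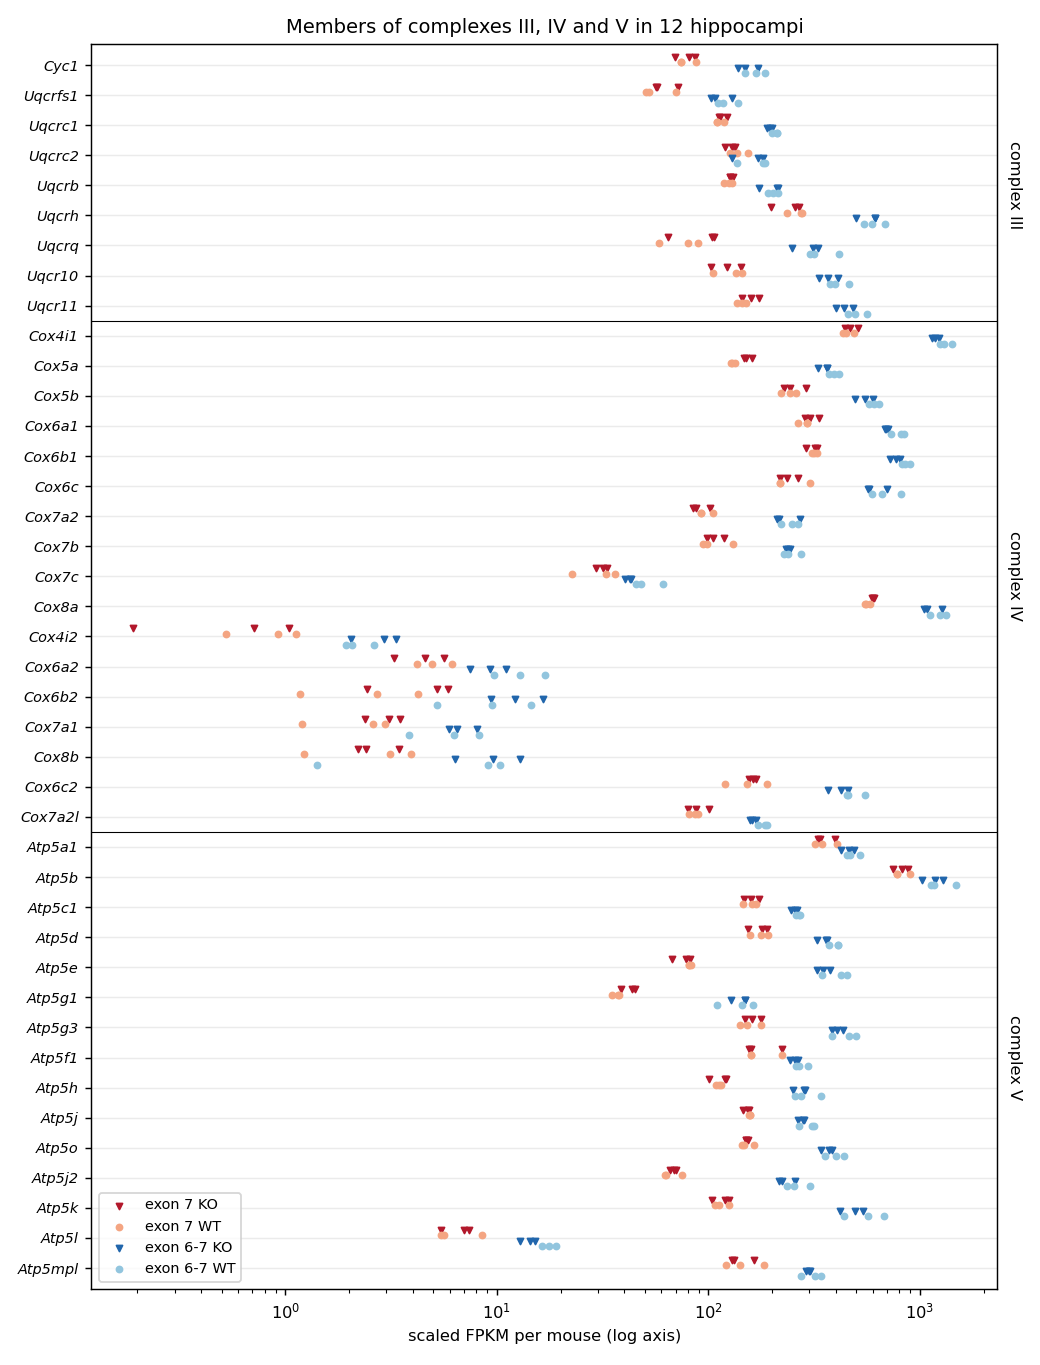
Scaled FPKM of the 41 tested members (log axis) with 1 point per mouse, coloured by line and genotype and grouped by complex. In 38 of the 41 members all 6 exon 7 line mice lie below all 6 exon 6-7 line mice, while knockout and wild-type points of a line lie close together.

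The wild-type littermates of both lines were compared first, since their difference was much larger than either knockout effect. In exon 7 WT mice 39 of the 41 members were lower than in exon 6-7 WT mice at an adjusted p under 0.05 (limma, Benjamini-Hochberg over all 14214 genes), and none was higher. Among all genes tested, 33.1% were lower and 34% higher, 67.1% in all. The median log2 difference of the members was -1.21, with a range of -2.30 to -0.26, against -0.00 for all genes tested, of which 50.2% were below 0. The groups did not overlap in 39 members (background 34.5%). In 38 members all 6 exon 7 line mice, knockouts included, were below all 6 exon 6-7 line mice (background 27.4%). Markers of cell types were compared between the same wild types, and none was at 0 in any library. The share called was 66.7% for oligodendrocytes and 71.4% for excitatory neurons, about the 67.1% of all genes. It ran from 25% for the meninges to 100% for astrocytes, inhibitory interneurons and endothelium. Of 6 oligodendrocyte markers 4 were lower, with a median of -0.70 and sums of 4867 to 5126 scaled FPKM in exon 7 WT mice and 5070 to 6382 in exon 6-7 WT mice. Of 7 excitatory neuron markers 4 were higher and 1 lower, and the most changed was Prox1 of the dentate gyrus, higher by 1.93. Of 4 inhibitory interneuron markers (Pvalb, Gad1, Gad2 and Slc32a1) 2 were higher and 2 lower, with Pvalb lower at -1.60. Of 5 astrocyte markers 3 were higher and 2 lower. Of 5 microglia markers 1 was higher and 2 lower, and of 3 endothelial markers 2 were higher and 1 lower. Of 5 pericyte markers 2 were higher and 2 lower, and of 3 blood markers 2 were lower. All 7 choroid plexus markers were above 0, with a median of 0.92, and 2 were higher, while their sums overlapped, at 1434 to 1737 in exon 7 WT mice and 42.5 to 8634 in exon 6-7 WT mice. With each library's trend on transcript length and GC content removed, 48.2% of all genes were called. Then 4 oligodendrocyte markers were lower and Mbp was higher (1.04). Of the excitatory neuron markers 3 were higher (Prox1 at 1.82) and 1 lower. Of the astrocyte markers 1 was higher and 1 lower (median 0.0007). Of the inhibitory interneuron markers only Pvalb passed (-1.01). The part of these markers in the members' difference was not tested. In these bulk samples fewer cells of a type and less RNA per cell cannot be told apart. Differences are between means of log2(scaled FPKM + 1), where the added 1 makes the change of a low gene look smaller than it is.

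In complex III the 5 small subunits, which surround the catalytic core, had a median log2 difference of -1.68, and all of them fell, though Uqcrb no longer passed with each library's trend on transcript length and GC content removed (-0.19, limma adjusted p = 0.192). Uqcr11, the smallest, was at 150.1, 144 and 137 scaled FPKM in exon 7 WT mice and 493, 563 and 459 in exon 6-7 WT mice. The exon 7 WT mice were all below the exon 6-7 WT mice, with a log2 difference of -1.80 (limma adjusted p = 5.67e-08). Uqcrq, which helps bind ubiquinone, was at 58.6, 89.7 and 79.7 scaled FPKM in exon 7 WT mice and 315, 415 and 302 in exon 6-7 WT mice. Its difference was the largest of the complex, -2.17. Cytochrome c1 (Cyc1) and the Rieske protein (Uqcrfs1), the catalytic subunits encoded in the nucleus, fell by 1.08 and 1.07 on the log2 scale. Of the core proteins, which face the matrix, Uqcrc1 fell by 0.88, while Uqcrc2, at 126, 155 and 137 scaled FPKM in exon 7 WT mice and 136, 186 and 181 in exon 6-7 WT mice, did not pass the test at -0.26 ± 0.15 (SE; limma adjusted p = 0.13).

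In complex IV all 10 common isoforms fell, with a median of -1.38 on the log2 scale. With the length and GC trend removed, Cox7c (-0.14) and Cox8a (0.02) no longer passed. Cox5a, a matrix-side subunit and a binding partner of a thyroid hormone metabolite, was at 134, 129 and 129.9 scaled FPKM in exon 7 WT mice and 414, 391 and 373 in exon 6-7 WT mice. The groups were far apart, and its log2 difference of -1.58 had the smallest p-value of all members (limma adjusted p = 3.60e-08). Cox4i1, the regulatory subunit that binds ATP, was at 486, 446 and 434 scaled FPKM in exon 7 WT mice and 1410.3, 1295 and 1250.4 in exon 6-7 WT mice. It fell by 1.53 (limma adjusted p = 5.07e-08). Cox6b1, which links the monomers of the complex on the intermembrane side, was at 310.0, 327 and 317 scaled FPKM in exon 7 WT mice and 847, 898 and 820.3 in exon 6-7 WT mice, a difference of -1.42 (limma adjusted p = 5.44e-08). Cox6a1, a non-muscle isoform, was at 264, 291 and 294 scaled FPKM in exon 7 WT mice and 813, 842 and 728 in exon 6-7 WT mice, a difference of -1.49 (limma adjusted p = 6.29e-08). In all 4 of these genes no mouse of one group reached the values of the other. Of the 5 tested minor isoforms, Cox4i2, Cox6a2, Cox6b2 and Cox7a1 fell, with differences of -1.53 to -0.80. None of the 4 passed with the length and GC trend removed, where Cox4i2 turned to 0.25, Cox6a2 was at -0.36, Cox6b2 at -0.55 and Cox7a1 at -0.13 (limma adjusted p = 0.172 to 0.705). Cox8b, at 3.11, 1.22 and 3.93 scaled FPKM in exon 7 WT mice and 10.4, 9.09 and 1.42 in exon 6-7 WT mice, did not pass at -0.87 ± 0.50 (SE; limma adjusted p = 0.141), and mouse WT865 gave its lowest exon 6-7 WT value. Cox7a2l, a relative of Cox7a2, and Cox6c2, an annotated processed pseudogene of Cox6c, also fell. Ndufa4, listed under complex I by name and now placed in complex IV, fell by 1.31 (limma adjusted p = 8.33e-06).

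In complex V all 15 tested members fell, and the size of the fall differed between subunits of the same assembly. With the length and GC trend removed 12 of the 15 passed, without Atp5d (-0.06), Atp5f1 (-0.36) and Atp5j (0.04). The F1 head holds Atp5e at a single copy beside several copies each of Atp5a1 and Atp5b. Atp5e, the epsilon subunit of the central stalk, was at 80.7, 82.5 and 81.4 scaled FPKM in exon 7 WT mice and 424, 454 and 346 in exon 6-7 WT mice. It fell to 20.3% of the exon 6-7 WT level, a log2 difference of -2.30 and the largest of all members (limma adjusted p = 3.71e-08). Atp5a1 and Atp5b, the alpha and beta subunits, fell by 0.44 and 0.61. The 95% intervals of these 3 differences ran from -2.54 to -2.06 for Atp5e, -0.68 to -0.20 for Atp5a1 and -0.88 to -0.33 for Atp5b. They did not overlap between Atp5e and the other 2. The representative transcripts differ in length, at 421 bases for Atp5e, 2471 for Atp5a1 and 1916 for Atp5b. With the length and GC trend removed the differences were closer, at -1.31 for Atp5e, -0.42 for Atp5a1 and -0.35 for Atp5b. Among the small membrane subunits, Atp5k (subunit e, at the dimer interface) was at 125, 108 and 112 scaled FPKM in exon 7 WT mice and 673, 569 and 439 in exon 6-7 WT mice, a difference of -2.26 (limma adjusted p = 1.20e-07). Atp5j2, subunit f, was at 62.7, 62.7 and 75.4 scaled FPKM in exon 7 WT mice and 253, 304 and 237 in exon 6-7 WT mice, a difference of -1.96 (limma adjusted p = 5.49e-08). Both were lower in every exon 7 WT mouse. In the peripheral stalk, which holds the head still, Atp5o was at 165, 144 and 147 scaled FPKM in exon 7 WT mice and 436, 402 and 357 in exon 6-7 WT mice and fell by 1.38 (limma adjusted p = 1.26e-07). Atp5g1, 1 of 3 genes for the same c-ring subunit, was at 37.4, 35.2 and 38.00 scaled FPKM in exon 7 WT mice and 145, 163 and 110.0 in exon 6-7 WT mice and fell by 1.87 (limma adjusted p = 1.96e-07).

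**Figure D2:**
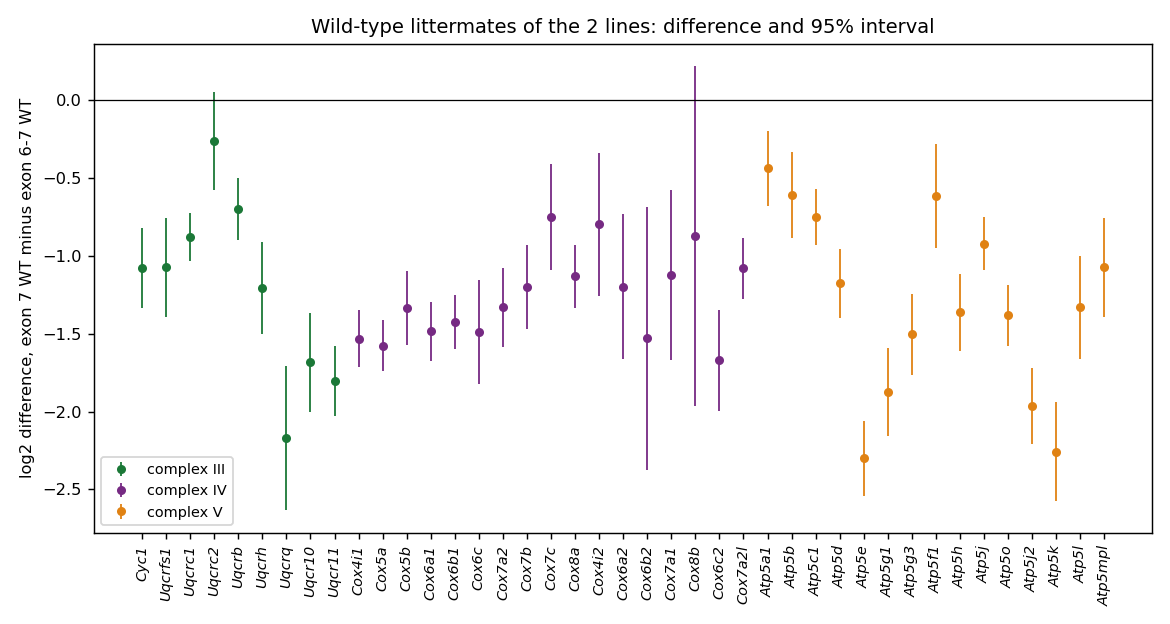
Log2 difference of exon 7 WT minus exon 6-7 WT mice for the 41 tested members, with 95% intervals from limma and members ordered by complex and role. All points lie below 0, and the intervals of Uqcrc2 and Cox8b reach across it.

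The differences followed transcript length in all genes as well as in the members. Over the 14055 tested genes with an annotated length, Spearman's rho between length and the log2 difference was 0.656, and over the 41 members it was 0.41. These are descriptions across genes of the same libraries. The members were short, with a median representative transcript of 659 bases, against 2751 bases for all genes tested. Under 600 bases the median difference was -1.49 in 17 members and -0.88 in all 613 genes. From 1500 to 2500 bases it was -0.61 in 6 members and -0.32 in all 3239 genes. The longest member by this annotation was Atp5g1, whose transcript length is uncertain since its variants differ widely. With each library's trend on length and GC content removed, the members' median was -0.53 (all genes -0.0495) and 29 of 41 passed as lower, against 26.2% of all genes under this setting. The 10 members that lost their call are those named above by complex. What sets this relation to length was not tested.

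**Figure D3:**
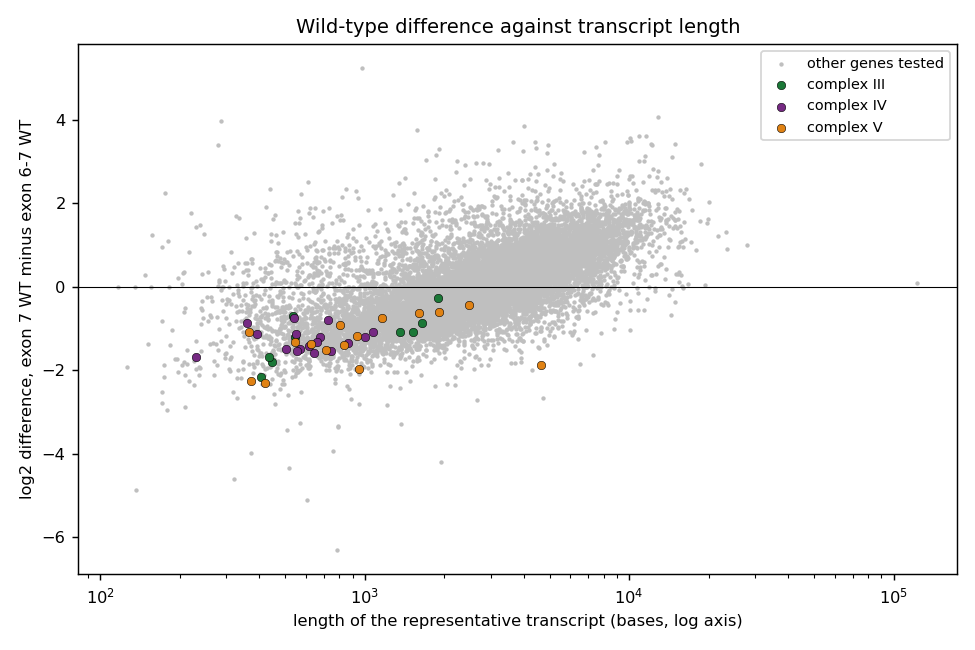
Log2 difference of exon 7 WT minus exon 6-7 WT mice against the length of the representative transcript (log axis), for all tested genes with a length (grey) and the members (coloured by complex). Members lie mostly under 2500 bases, in the part of the plot where most genes are below 0, and below the middle of the grey points there.

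Promoters were read for members with an entry in RefSeq (assembly GRCm38.p6), to show what the members with the smallest p-values between the wild types carry there. The window ran from 250 bases before to 50 bases after the start site, and 31 of the 43 listed members matched. The core letters GCGCANGCG of NRF1, a palindromic site of an activator of respiratory genes, were found on either strand in 10 of the 31 (32.3%), against 7% of the windows of all 27025 genes. CCGGAAG, the core of the ETS factor GABPA, was found in 10 (32.3%, against 9.9%), and AAGATGGC of YY1 in 2 (6.5%, against 3.2%). At least 1 of the 3 was present in 16 (51.6%, against 17.8%). A match is a description of letters and not a bound site. The 5 members below are those with the smallest p-values between the wild types that held a match before the start site. Each shows 100 bases 5′ to 3′ on the gene's own strand, which is the minus strand in all 5, with the match in capitals.
Atp5e (chr2:174464154-174464253, from -152 to -53 of the start, GABPA): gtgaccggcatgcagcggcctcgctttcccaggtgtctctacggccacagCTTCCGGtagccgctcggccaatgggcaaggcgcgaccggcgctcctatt
Cox6b1 (chr7:30626115-30626214, from -100 to -1, GABPA): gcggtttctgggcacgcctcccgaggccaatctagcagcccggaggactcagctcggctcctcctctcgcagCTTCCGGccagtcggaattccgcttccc
Uqcr11 (chr10:80406838-80406937, from -116 to -17, GABPA): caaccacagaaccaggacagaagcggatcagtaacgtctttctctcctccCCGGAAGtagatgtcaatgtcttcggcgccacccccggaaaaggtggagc
Cox6a1 (chr5:115349023-115349122, from -164 to -65, NRF1): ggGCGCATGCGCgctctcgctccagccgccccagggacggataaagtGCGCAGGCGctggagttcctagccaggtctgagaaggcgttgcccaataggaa
Atp5k (chr5:108434400-108434499, from -100 to -1, NRF1): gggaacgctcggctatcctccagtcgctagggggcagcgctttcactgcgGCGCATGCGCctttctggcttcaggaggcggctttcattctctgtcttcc
In Atp5e and Cox6b1 the GABPA letters lay on the opposite strand. In Cox6a1 and Atp5k a palindromic run gave overlapping matches on both strands. The labels cover the printed bases only. Over the full window Uqcr11 also held an NRF1 match, and Cox6a1 and Atp5k each also held a GABPA match. Cox5a, with the smallest p-value of all members, held none of the 3 sets of letters in its window.

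The regulators were called about as often as all genes. Of 11 regulators of respiratory genes, 6 were higher and 1 lower in exon 7 WT than in exon 6-7 WT mice (limma, adjusted p under 0.05), with a median log2 difference of 0.49. That is 63.6% called, against 67.1% of all genes, of which 34% were higher. Ppargc1a, the coactivator of mitochondrial biogenesis, averaged 19.1 scaled FPKM in exon 7 WT and 5.59 in exon 6-7 WT mice, and Gabpa 14.9 and 4.33. The one that fell was Esrra, a nuclear receptor that acts with Ppargc1a, at -0.75. With the length and GC trend removed Gabpa passed at 1.49, but Ppargc1a (0.52, limma adjusted p = 0.0978) and Esrra (-0.16, limma adjusted p = 0.165) did not. Nrf1 itself differed by 0.07 and did not pass (limma adjusted p = 0.673). With the length and GC trend removed it passed as higher, at 0.39 (limma adjusted p = 0.0284). Under that setting 5 of the 11 regulators were higher and none lower, 45.5% called, against 48.2% of all genes. Atp5j, a peripheral stalk subunit, and Gabpa start head to head on chromosome 16, at 84827866 to 84835625 on the minus strand and 84834925 to 84863779 on the plus strand of mm10, and overlap by 701 bases. Of these neighbours Atp5j fell by 0.92, a call lost at 0.04 with the length and GC trend removed (limma adjusted p = 0.681), while Gabpa rose by 1.61. As strand use in the counting is not given, reads in the overlap cannot be told apart.

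The rest of the chain was described by counts. Of 40 tested complex I subunits 38 fell and none rose, with a median of -1.27, and of 4 complex II genes 3 fell, with a median of -0.95. Of 31 tested assembly factors and cytochrome c, 17 fell and 4 rose, with a median of -0.55, where 33.1% of all genes were lower and 34% higher. In either direction 67.7% were called, about the 67.1% of all genes. Among the 17, Uqcc2, an assembly factor of complex III, fell by 1.80 and Cox17, which carries copper to complex IV, by 1.66. The 4 that rose were Pet117 (1.83), Ttc19 (0.66), Taco1 (0.32) and Lrpprc (0.26). With the length and GC trend removed 14 were lower and 5 higher. The 6 mitochondrially encoded subunits of the same complexes did not share the direction: mt-Co1 rose by 0.95 and mt-Cytb by 0.71, while mt-Co2, mt-Co3 and mt-Atp6 fell and mt-Atp8 did not pass. With the length and GC trend removed, mt-Co3 (-0.35) and mt-Atp6 (-0.22) did not pass either. The levels of mt-Co2, mt-Co3, mt-Atp6 and mt-Atp8 were under 25 scaled FPKM in every group mean, against 5856 to 13799 for mt-Co1 and mt-Cytb. How reads of mitochondrial origin were assigned is not stated in these sources.

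In the exon 7 line no member passed the test between knockouts and wild types. None of 14214 genes did (0%), and 1 member had an unadjusted limma p under 0.05, against 3.46% of all genes. The median log2 difference was 0.02, with 26 members above 0 and 15 below it, where 53.3% of all genes lay. Cox5a was at 147, 161 and 150.2 scaled FPKM in exon 7 KO mice and 134, 129 and 129.9 in exon 7 WT mice. The knockout mice were all above the wild types, a difference of 0.22 with a 95% interval of 0.06 to 0.39. Its limma adjusted p was 0.9999, and an exact two-sided permutation test gave 0.1, which 3 against 3 mice cannot go below. Atp5g1 was at 38.7, 43.7 and 45.2 scaled FPKM in exon 7 KO mice and 37.4, 35.2 and 38.00 in exon 7 WT mice, a difference of 0.20, and Cox6b2, a testis isoform, at 2.45, 5.88 and 5.23 scaled FPKM in exon 7 KO mice and 2.7, 4.25 and 1.17 in exon 7 WT mice, a difference of 0.60 in groups that overlap. On the low side Atp5e was at 67.2, 82.2 and 78.1 scaled FPKM in exon 7 KO mice and 80.7, 82.5 and 81.4 in exon 7 WT mice, with 1 of 3 knockouts inside the range of the wild types. Its difference was -0.11, and those of Uqcrh and Cox4i2 were -0.13 and -0.20, with overlapping groups in all 3. Among the 41 tested members the groups were apart in 3, all with the knockouts above: Cox5a, Cox8a and Atp5g1 (background 3.27%), and in none with the knockouts below (3.76%). Cox7b2, under the filter and not tested, had its knockouts below its wild types. Among the cell type markers, all 6 of oligodendrocytes (median -0.08) and all 4 of inhibitory interneurons (median -0.07) were below 0 in this line. All 3 blood markers were above 0 (median 0.64), and the other lists lay on both sides of 0. No marker passed the test.

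In the exon 6-7 line no member passed either, while 2 of all genes did (0.0141%). Here 36 of 41 members were below 0 in knockouts, against 50.6% of all genes, and the median was -0.12, a fold of 0.917. The median was -0.0701 with the length and GC trend removed, -0.0658 with TPM scaling (all genes 0.0504) and -0.0172 with quantile normalization. Unadjusted, 1 member had a limma p under 0.05, against 4.1% of all genes. Cox6a1 was at 708, 684 and 688 scaled FPKM in exon 6-7 KO mice and 813, 842 and 728 in exon 6-7 WT mice. All knockouts were below all wild types, a difference of -0.19 with a 95% interval of -0.38 to -0.01 (limma adjusted p = 0.9998; exact permutation p = 0.1). Cox5a was at 364, 364 and 331 scaled FPKM in exon 6-7 KO mice and 414, 391 and 373 in exon 6-7 WT mice, with no overlap and a difference of -0.15. Cox6a2, known mainly from heart and muscle, was at 7.49, 11.02 and 9.33 scaled FPKM in exon 6-7 KO mice and 12.9, 16.95 and 9.7 in exon 6-7 WT mice. Its difference was -0.45, with overlapping groups. The exceptions above 0 were Atp5g1 at 0.04 and 4 minor isoforms, Cox8b, Cox6b2, Cox4i2 and Cox7a1, at 0.66, 0.41, 0.22 and 0.18. Cox8b was at 6.38, 9.64 and 12.8 scaled FPKM in exon 6-7 KO mice and 10.4, 9.09 and 1.42 in exon 6-7 WT mice, and its difference rests on mouse WT865: without it the value was -0.06. Among the 41 tested members the groups were apart in 9, all with the knockouts below (background 6.3%), namely Uqcrc1, Cox4i1, Cox5a, Cox6a1, Cox6b1, Cox7a2l, Cox7c, Atp5d and Atp5l, and in none with the knockouts above (5.02%).

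The median deviation of the 41 members from the line's mean was -0.03, -0.04 and -0.11 in mice KO776, KO777 and KO864, against 0.13, 0.14 and -0.05 in mice WT778, WT809 and WT865. Mouse WT865 lay among the knockouts, and without it the members' median difference was -0.19. Other lists also stood apart from 0 in these mice. All 6 oligodendrocyte markers were below 0 in exon 6-7 KO mice, with a median of -0.38 and sums of 4462 to 4612 scaled FPKM in the knockouts and 5070 to 6382 in the wild types. All 7 choroid plexus markers were above 0, with a median of 1.58, but their sums overlapped, at 6751 to 8430 in the knockouts and 42.5 to 8634 in the wild types. All 4 markers of the meninges were above 0 as well, with a median of 0.65, and their sums were apart, at 56.45 to 61.46 in the knockouts and 39.92 to 47.59 in the wild types. All 5 microglia markers (median -0.13) and all 4 inhibitory interneuron markers (median -0.08) were below 0. All 5 pericyte markers (median 0.10) and all 3 blood markers (median 0.15) were above 0. No marker of these lists passed the test (limma, adjusted p of 0.99 or more), and none was at 0 in any library. Complex I was also below 0 in 39 of 40 genes, with a median of -0.12. Over all genes the exon 6-7 difference and transcript length had a Spearman's rho of 0.355, with a median of -0.10 in genes under 600 bases, against -0.16 for the 17 members there. With the length and GC trend of each library removed, 37 of 41 members were below 0, with Cox6a1 at -0.09 and Cox5a at -0.10. The part of the markers in the members' difference was not tested.

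**Figure D4:**
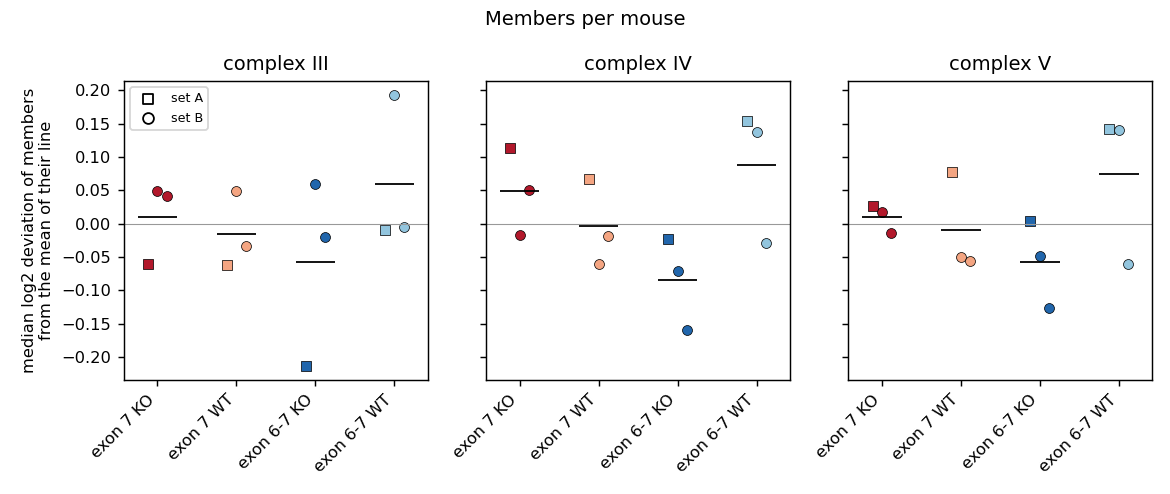
Median log2 deviation of the members of complexes III, IV and V from the mean of their line, 1 point per mouse, with squares for set A, circles for set B and bars for group means. In complexes IV and V the points of 2 exon 6-7 WT mice lie highest, while the third, mouse WT865, lies among the exon 6-7 KO mice.

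Set A and set B libraries differed within lines. In the exon 7 line 13 members were above and 8 below in the set A mice with no overlap (backgrounds 24.7% and 25%), and in the other line 7 were above and 5 below (16.8% and 13.7%). Both directions together, that is 51.2% and 29.3% of the 41 tested members. These are near the shares of all genes, so the split was not particular to the members. Of the members, 6 were above in both lines (Cyc1, Uqcrfs1, Cox6c, Cox6c2, Cox7a2 and Atp5a1), where 9.56% of all genes were, and 2 below in both (Uqcrh and Uqcrc2), where 7.44% were. Each group holds 1 set A library, and no member passed in a knockout comparison with a set term or in set B alone.

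The knockout effects of the lines were then set against each other. The difference of the effects, exon 7 minus exon 6-7, was above 0 in 36 of 41 members, with a median of 0.14, and 51.2% of all genes were below 0. The median was 0.0564 with quantile normalization, 0.0608 with the length and GC trend removed and 0.22 without mouse WT865. No member passed the test (limma, 0.00704% of all genes called), and 3 had an unadjusted p under 0.05, against 3.88% of all genes. Those were Cox5a at 0.38 with a 95% interval of 0.14 to 0.61, Cox6a1 at 0.31 (0.04 to 0.58) and Uqcr11 at 0.34 (0.02 to 0.66), and the limma adjusted p was 0.9998 in each. The members lowest on this scale were Cox8b at -0.62, Cox4i2 at -0.42 and Uqcrh at -0.05. The spread of the low isoforms was wide: the 95% interval of Cox8b ran from -2.16 to 0.93.

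**Figure D5:**
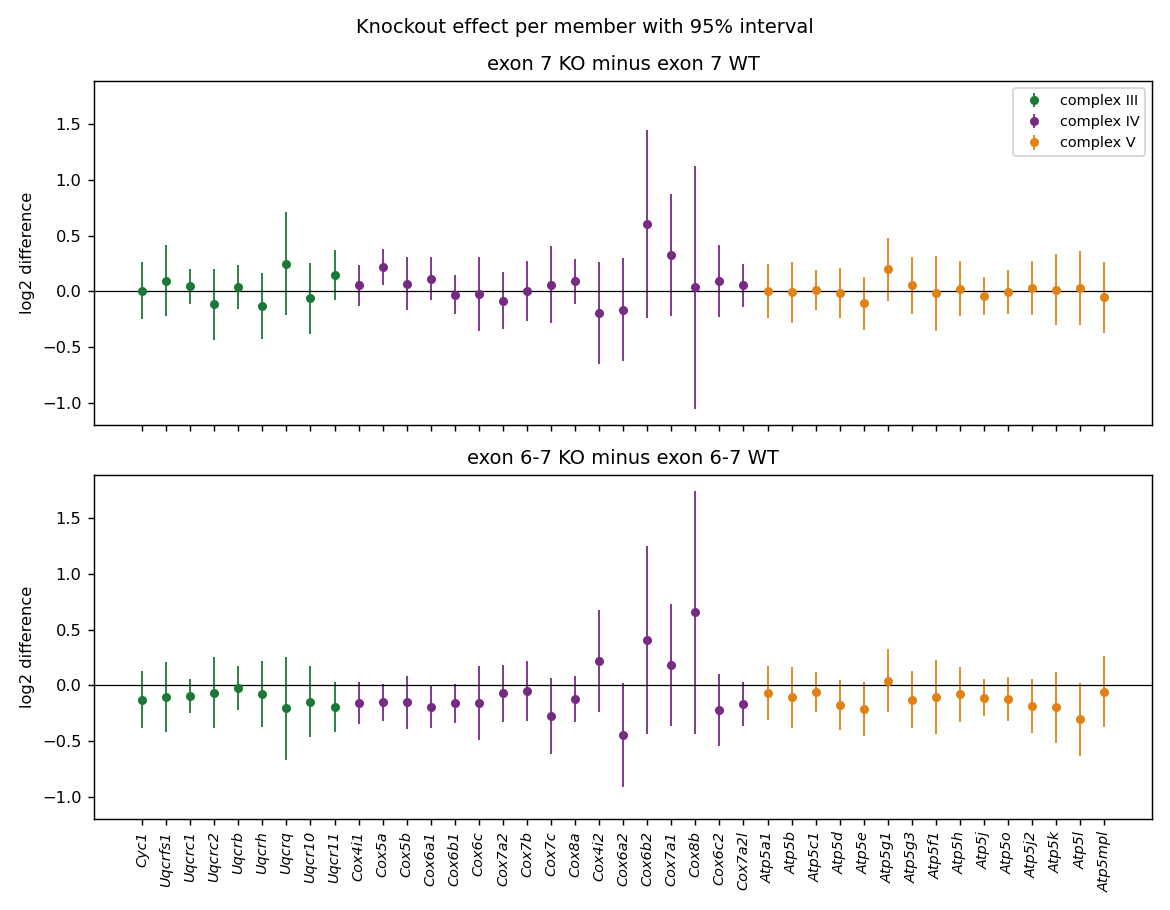
Log2 difference of knockout minus wild-type mice for each of the 41 members with its 95% interval, for the exon 7 line (top) and the exon 6-7 line (bottom). Points lie on both sides of 0 in the exon 7 line and mostly below it in the exon 6-7 line, and the intervals include 0 except for Cox5a in the exon 7 line and Cox6a1 in the exon 6-7 line.

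The isoform families were compared as shares of their summed FPKM, a measure per length. The common isoform made up nearly all of each complex IV family in every group. Cox4i2 was 0.135 ± 0.085% of the Cox4i1 and Cox4i2 sum in exon 7 KO, 0.189 ± 0.071% in exon 7 WT, 0.233 ± 0.052% in exon 6-7 KO and 0.167 ± 0.017% in exon 6-7 WT mice (SD, n = 3). Cox6a2 was at 5.62, 3.28 and 4.56 scaled FPKM in exon 7 KO, 4.94, 4.2 and 6.15 in exon 7 WT, 7.49, 11.02 and 9.33 in exon 6-7 KO and 12.9, 16.95 and 9.7 in exon 6-7 WT mice beside Cox6a1 at 286, 302 and 333 scaled FPKM in exon 7 KO, 264, 291 and 294 in exon 7 WT, 708, 684 and 688 in exon 6-7 KO and 813, 842 and 728 in exon 6-7 WT mice, a share of 1.32 to 1.77% in the group means. Cox6b2, at 12.1, 16.5 and 9.37 scaled FPKM in exon 6-7 KO mice and 9.49, 14.6 and 5.24 in exon 6-7 WT mice, took 0.839 to 1.62%. Cox7a1, the heart and muscle isoform, was at 3.1, 2.39 and 3.48 scaled FPKM in exon 7 KO, 2.97, 1.21 and 2.59 in exon 7 WT, 5.97, 8.07 and 6.5 in exon 6-7 KO and 6.26, 8.21 and 3.86 in exon 6-7 WT mice beside Cox7a2 at 102, 85.04 and 87.6 scaled FPKM in exon 7 KO, 105, 92.1 and 92.7 in exon 7 WT, 272, 216 and 212 in exon 6-7 KO and 265, 248 and 221 in exon 6-7 WT mice, a share of 2.25 to 3.17%. The groups of a line overlapped in each of these.

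Cox8b, the muscle isoform, was at 3.44, 2.41 and 2.2 scaled FPKM in exon 7 KO mice and 3.11, 1.22 and 3.93 in exon 7 WT mice and took 0.447 to 0.865% of its family across the groups. Cox7b2, a testis isoform, was at 0.444, 0.291 and 0 scaled FPKM in exon 7 KO, 1.21, 0.598 and 0.86 in exon 7 WT, 0.171, 0.381 and 1.29 in exon 6-7 KO and 0, 0.617 and 0.182 in exon 6-7 WT mice, beside Cox7b at 118, 105 and 98.7 scaled FPKM in exon 7 KO, 131, 99.02 and 93.9 in exon 7 WT, 238, 244 and 232 in exon 6-7 KO and 228, 274 and 238 in exon 6-7 WT mice. Its share was 0.217 ± 0.19% in exon 7 KO, 0.81 ± 0.18% in exon 7 WT, 0.26 ± 0.26% in exon 6-7 KO and 0.1 ± 0.11% in exon 6-7 WT mice (SD, n = 3). The exon 7 KO and WT shares did not overlap, and the exact two-sided permutation p was 0.1, the smallest that 3 against 3 allows. In the c ring, Atp5g1 took 20.8 ± 2.7% in exon 7 KO, 19.1 ± 1.5% in exon 7 WT, 25.8 ± 0.88% in exon 6-7 KO and 23.6 ± 2.2% in exon 6-7 WT mice (SD, n = 3). In effect this sets Atp5g1 against Atp5g3, since all windows of Atp5g2 also occur in pseudogenes and its values say little. The size of the share also depends on the transcript length of Atp5g1, which is uncertain. The 3 exon 7 WT shares were below the 3 exon 6-7 WT shares, again with the smallest exact permutation p of 0.1. Atp5g3 was at 178, 161 and 149 scaled FPKM in exon 7 KO, 178, 142 and 152 in exon 7 WT, 434, 407 and 382 in exon 6-7 KO and 501, 461 and 383 in exon 6-7 WT mice. Atp5g2 was listed in 6 of the 12 libraries, at 0.279 scaled FPKM or less. No share differed at an adjusted p (Benjamini-Hochberg over 21 exact permutation tests) under 0.656.

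Copies elsewhere in the genome bear on some levels. Of the 43 listed members, 18 shared at least 10% of their 50-base windows with another annotated gene. All of Atp5g2's windows also occur in the pseudogenes Gm10175 and Gm10231, so its values near 0 say little about its transcript. Of the windows of Atp5l 52.5% occur in the pseudogene Gm10221, which was listed at a mean of 86.2 FPKM over exon 7 mice and 250 FPKM over exon 6-7 mice. Of those of Cox7c 29.1% occur in Gm12338, listed at 137 and 423 FPKM in the same order of lines. Summed with such copies, Atp5l differed between knockouts and wild types by 0.03 (exon 7) and -0.06 (exon 6-7), against 0.03 and -0.31 alone. Between the wild types it differed by -1.41, against -1.33 alone. Cox7a2l summed with its copy differed by 0.12 in exon 6-7 knockouts, against -0.17 alone, so its direction turned. Cox7c summed with its copies differed by -0.11 (exon 6-7) and 0.23 (exon 7), against -0.28 and 0.06 alone. Of the other 5 tested members with such a sum, Atp5f1, Atp5h, Atp5o, Uqcr11 and Uqcrb, all were below 0 in exon 6-7 knockouts, at -0.22 to -0.06. Of the 24 tested members that shared less than 10%, 23 fell between the wild types, with a median of -1.19, and 20 were below 0 in exon 6-7 knockouts, with a median of -0.11.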

How the data were processed

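Hippocampal RNA of 12 mice, 3 in each of 4 groups, was measured by RNA-seq. Per the labels' protocols, libraries were TruSeq libraries of poly(A) RNA, sized on an agarose gel and read on an Illumina HiSeq. CASAVA, GSNAP, Cufflinks and mm10 are named in the submitters' processing notes. The authors deposited 1 table of FPKM values per mouse on Ensembl release 74 genes, per the file headers. No aligner setting, use of strand or handling of multiple mapping is stated in these sources. FPKM values keep no depth, so no counting intervals are given.

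A gene without a value in a mouse was given 0. Scaling used median ratios over 12511 genes that reached 1 FPKM in each library (factors 0.919 to 1.07). Tested were genes whose mean reached 1 FPKM, without small RNAs (108). The test was limma 3.58.1 in R 4.3.3 on log2(scaled FPKM + 1), with a mean per group over all 12 libraries (8 residual degrees of freedom), two-sided, with Benjamini-Hochberg adjustment over all 14214 genes and a threshold of 0.05. It was tested on simulated data. Intervals are 95% limma intervals. Isoform shares were compared by exact permutation. Transcript lengths and coordinates came from GENCODE M21 on the mm10 build, and 98.9% of the genes tested had a length. Promoters came from RefSeq GRCm38.p6. Tables and plots were made in Python 3.11.15.

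Members and lists were chosen with earlier results of these data known. Members with full values are the 10 with the smallest p in each direction among those that passed, or 3 where fewer passed, the highest and lowest of each complex, and the isoform families. Alternatives were other pseudocounts, filters and scalings, a length and GC correction, library weights, a library set term, each set alone, and each library left out. Sums with pseudogene copies and set B without mouse WT865 were chosen after seeing the data.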

Additional observations from a re-analysis of the deposited data

Results flagged for a closer look

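Cox5a, a matrix-side subunit of complex IV, differed from the wild types in opposite directions in the 2 lines: all 3 exon 7 KO mice were above all 3 exon 7 WT mice, and all 3 exon 6-7 KO mice were below all 3 exon 6-7 WT mice. The difference of the knockout effects, exon 7 minus exon 6-7, was 0.38 on the log2 scale. It did not pass adjustment over all genes (limma adjusted p = 0.9998), and was 0.30 to 0.44 over the alternatives and 0.33 to 0.41 with single libraries left out. Of the windows of Cox5a 29.2% are shared with Gm26631, a noncoding RNA listed at a mean of 0.44 FPKM over exon 7 mice and 0.933 FPKM over exon 6-7 mice.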

How the results depend on the processing

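Under 29 other settings no member passed in either knockout comparison or in their difference, where a test was possible. Between the wild types 29 to 40 members passed as lower (29 with the length and GC trend removed, 35 with quantile normalization), and 39 to 40 with a library left out. With TPM scaling Cox7b2 passed the filter and was 1 member called higher. The wild-type median of -1.21 was -1.34 with a pseudocount of 0.1, -1.33 with a 5 FPKM filter, -1.36 as deposited (all genes -0.14), -1.13 with TPM (all genes 0.13), -0.87 with quantile normalization, -1.28 with a nuclear total, -0.53 with the trend removed, -1.31 with array weights, -1.31 with a set term, -1.27 in set B, -1.46 in set B without mouse WT865, and -1.38 to -1.15 with a library left out. The exon 7 median of 0.02 was -0.02 to 0.07, and -0.01 to 0.08 with a library left out. The exon 6-7 median of -0.12 was -0.0172 with quantile normalization, -0.0658 with TPM, -0.0701 with the trend removed, -0.21 in set B without mouse WT865 and -0.19 to -0.10 with a library left out, the lowest without mouse WT865. The median difference of 0.14 was 0.0564 with quantile normalization and 0.0608 with the trend removed, 0.27 in set B without mouse WT865, and 0.10 to 0.22 with a library left out, the highest without mouse WT865. Of the members named without passing, some changed sign. In set A alone Cox8b was -0.62 for exon 6-7 and 0.74 in the difference, and Cox4i2 0.0814 and Cox6b2 -0.10 in the exon 7 line. Cox6b2 was -0.21 in the exon 6-7 line in set B without mouse WT865. Uqcrh was 9.33e-05 with array weights and 0.0888 in set B without mouse WT865, both in the difference. With a library left out Cox8b was -0.0612 to 1.06 for exon 6-7 and -1.02 to 0.0978 in the difference, Cox4i2 -0.37 to 0.0188 and Uqcrh -0.21 to 0.00533 in the exon 7 line, and Uqcrh -0.15 to 0.0854 in the difference. The cause was not tested. Isoform shares moved by less than the spread between mice in all 273 alternatives. As ratios within a library they cannot change with scaling, and dropping a mouse can move a group mean only within that spread. The outcome was thus largely set beforehand and is no check of the shares. No paired analysis was possible because each mouse number occurs once and the labels do not say which mice shared a litter.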

Other observations

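Pet117, an assembly factor of complex IV, had no value in 2 of 3 exon 7 KO mice and 4.73 scaled FPKM in KO994, against 1.02, 1.73 and 7.15 scaled FPKM in exon 7 WT mice. It had no value in any of the 6 exon 6-7 mice. It was chosen after its values were seen.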
